A study of Homo sapiens with 4 samples.

Results

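This report describes 195 small nucleolar RNA (snoRNA) and small Cajal body RNA (scaRNA) genes in lung cancer cells in which the circular RNA circZFR was silenced. They were picked by name, as genes whose symbol starts with SNORD, SNORA or SCARNA and a digit, and by detection, as those with a value above 0 in at least 3 of the 4 libraries. Of 413 such genes listed, 118 of 282 box C/D snoRNAs (SNORD), 62 of 107 box H/ACA snoRNAs (SNORA) and 15 of 24 scaRNAs qualified, against 40205 genes listed in all. The study had 2 libraries of cells transfected with a negative control siRNA (NC 1 and NC 2) and 2 of cells transfected with siRNA against circZFR (si-circZFR 1 and si-circZFR 2), all from total RNA at 24 h. The cells are lung adenocarcinoma cells that the sample labels call H1299 and the design text calls A549; no other agent or allele is named, and both groups share the transfection. Nothing in the labels says whether the libraries of a group came from separate cultures, so each p-value measures only the spread between these libraries.

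Box C/D snoRNAs guide 2′-O-methylation of ribosomal RNA and box H/ACA snoRNAs guide pseudouridylation, each by base pairing with the target and each inside a particle with its own core proteins. ScaRNAs carry the same boxes, or both kinds, and guide modification of spliceosomal RNA in Cajal bodies. A few snoRNAs, such as U3, U8, U14, U17 and U22, are needed for cleavage of the ribosomal RNA precursor. Most human snoRNAs are released from introns of host genes after splicing, while U3 is transcribed from its own promoter.

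The sequences below are those of the members the values turn on, taken from the reference genome (GRCh38) at the RefSeq positions of each gene. The first is the U3 gene SNORD3A (chr17:19188016-19188232, plus strand), shown because reads of its near-identical copies could be exchanged. Its capitals mark the only bases at which another of the 5 detected U3 copies differs from it.
SNORD3A: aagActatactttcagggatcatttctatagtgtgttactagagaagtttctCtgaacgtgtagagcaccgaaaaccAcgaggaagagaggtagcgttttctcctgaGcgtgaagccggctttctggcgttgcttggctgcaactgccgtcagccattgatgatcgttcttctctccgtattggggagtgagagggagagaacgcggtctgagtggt

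Counted from 1 at the 5′ end of SNORD3A, SNORD3B-1 and SNORD3B-2 carry A78C and are identical to each other, SNORD3C carries G108A, and SNORD3D carries A4G, C53T and A78C. A read must cross one of these bases to be told apart between copies, so the split of reads among the 5 U3 genes was uncertain and their sum was used.

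The C/D members with large differences between the groups follow, with the C box (TGATGA) and the D box (CTGA) in capitals where those letters were found. SNORD32A (chr19:49489966-49490047, plus strand) and SNORD34 (chr19:49490907-49490972, plus strand) lie in introns of RPL13A, and SNORD16 (chr15:66502811-66502910, minus strand) in an intron of RPL4. SNORD110 (chr20:2654212-2654286, plus strand) and SNORD57 (chr20:2656939-2657010, plus strand) lie in introns of NOP56. SNORD42A (chr17:28723431-28723491, plus strand) lies in an intron of RPL23A and SNORD30 (chr11:62853663-62853732, minus strand) in an intron of SNHG1.
SNORD32A: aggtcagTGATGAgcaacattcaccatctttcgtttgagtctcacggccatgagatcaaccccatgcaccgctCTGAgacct
SNORD34: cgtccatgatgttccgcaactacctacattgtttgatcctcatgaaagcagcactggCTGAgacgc
SNORD16: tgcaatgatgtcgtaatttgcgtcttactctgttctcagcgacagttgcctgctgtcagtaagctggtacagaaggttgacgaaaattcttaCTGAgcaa
SNORD110: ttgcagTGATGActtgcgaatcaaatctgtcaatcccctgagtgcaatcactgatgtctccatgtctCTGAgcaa
SNORD57: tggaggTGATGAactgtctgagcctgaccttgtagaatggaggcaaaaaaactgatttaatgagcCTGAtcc
SNORD42A: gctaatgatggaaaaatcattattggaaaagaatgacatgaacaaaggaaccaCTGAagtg
SNORD30: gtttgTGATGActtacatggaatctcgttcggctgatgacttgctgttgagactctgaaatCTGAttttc

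The H/ACA and scaRNA members shown are SNORA5A (chr7:45104349-45104482, minus strand, intron of TBRG4), SNORA6 (chr3:39408391-39408539, plus strand, intron of RPSA), SCARNA22 (chr4:1974636-1974760, plus strand, intron of NSD2) and SCARNA21 (chr17:7906123-7906260, plus strand, intron of CHD3). Capitals mark the last ACA within 8 bases of the 3′ end.
SNORA5A: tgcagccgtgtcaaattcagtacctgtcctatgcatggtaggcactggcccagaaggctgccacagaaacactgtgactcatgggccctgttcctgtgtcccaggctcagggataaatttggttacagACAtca
SNORA6: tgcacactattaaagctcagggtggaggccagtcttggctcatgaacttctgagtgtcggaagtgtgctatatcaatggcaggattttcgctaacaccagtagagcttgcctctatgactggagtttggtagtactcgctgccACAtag
SCARNA22: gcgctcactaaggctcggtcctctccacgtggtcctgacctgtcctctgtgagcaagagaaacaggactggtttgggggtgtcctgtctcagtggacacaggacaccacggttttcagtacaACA
SCARNA21: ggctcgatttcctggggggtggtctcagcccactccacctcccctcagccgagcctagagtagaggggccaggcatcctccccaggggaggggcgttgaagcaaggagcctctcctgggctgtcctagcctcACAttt

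The boxes were found more often in the members than in windows upstream of them, though not in every member. Searched on the strand of each gene, TGATGA stood within the first 25 bases of 71 of 117 C/D members with a position (60.7%) and of 0 of 117 windows of the same length 500 bases upstream. CTGA stood within the last 20 bases of 115 of 117 members (98.3%) and of 15.4% of the upstream windows. ACA stood within the last 8 bases of 58 of 62 H/ACA members (93.5%) and of 14.5% of their windows, and of 9 of 15 scaRNAs (60.0%).

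The deposited values were RPKM, and whole reads could be recovered from them. The 4 libraries held 11959335, 12816868, 11266089 and 11040050 reads (NC 1, NC 2, si-circZFR 1 and si-circZFR 2). The members took 2594, 3129, 2076 and 3517 of them, or 0.0217%, 0.0244%, 0.0184% and 0.0319%. ZFR, the gene whose circular product was targeted, measured 25.8 and 32.5 RPKM in NC against 5.21 and 4.61 in si-circZFR after scaling between libraries, and fell (log2 fold change -2.34 ± 0.18 SE, limma, adjusted p = 0.0481). It passed under 7 of 12 alternative settings (adjusted p from 0.00432 to 0.227). A value per gene does not tell the linear from the circular transcripts of ZFR. By RT-PCR, the study saw no detectable change of ZFR itself under its circZFR siRNA in A549 and HCC827 cells. Why the value of the gene fell here was not tested. The cell line markers were nearer to A549: CDKN2A, which A549 lacks, was listed at 0 in all 4 libraries. AKR1B10, abundant in A549, stood at 1290 to 1710 RPKM, and the blood cell genes PTPRC and CD3E were listed at 0.

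Few reads stood behind each gene. Over the 4 libraries the median was 20 reads for a C/D member, 17 for an H/ACA member and 12 for a scaRNA, and 108 of the 195 members had under 20. Only 14 members had 100 or more. SNORD3A held 4242 reads, the SNORD116 entry came next, and the highest H/ACA and scaRNA members, SNORA70 and SCARNA12, held 238 and 64. At the edge of the detection rule, 48 members above 0 in exactly 3 libraries held 3 to 19 reads (median 6.5), and 31 genes left out with values in exactly 2 libraries held 2 to 11 (median 3). NC 2 was the empty library for 23 of those 48 members, against 9 for NC 1 and 8 for each si-circZFR library.

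Per length, C/D members stood highest. The median over genes of the mean scaled RPKM was 5.26 for C/D (117 genes, the SNORD116 entry left out), 2.67 for H/ACA (62 genes) and 1.31 for scaRNAs (15 genes), with quartiles of 2.59 to 9.86, 1.54 to 4.40 and 0.692 to 3.59. The classes also differ in length, with medians of 77, 135 and 266 bases. Across the 194 members the level and the length had a Spearman correlation of -0.30, a description over genes that share the same libraries.

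**Figure D1:**
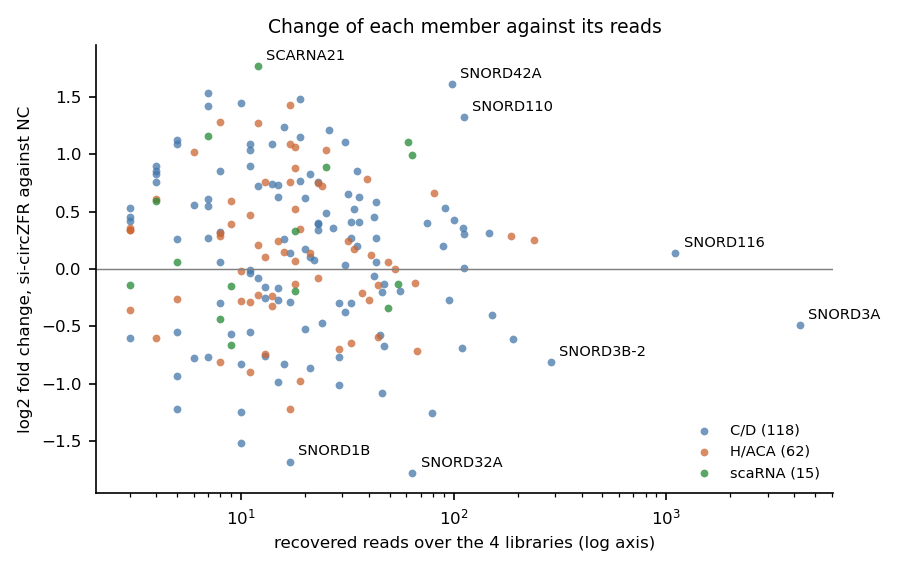
Each point is 1 of the 195 members. The horizontal axis gives its recovered reads over the 4 libraries on a log scale, the vertical axis its log2 fold change of si-circZFR against NC on log2(scaled RPKM + 1), and the colour its class. Differences beyond 1 in either direction sit mostly at low reads, and SNORD3A stands alone at 4242 reads.

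The first comparison asks whether silencing circZFR changed the level of any snoRNA or scaRNA. No member passed the test: 0 of the 177 members that reached 1 RPKM in 2 libraries had an adjusted p under 0.05 in limma, where 8 of all 13885 genes did (0.0576%). At an unadjusted p under 0.05 there were 38 members, 24 higher and 14 lower in si-circZFR, or 21.5%, beside 21.4% of all genes tested. limma-voom on the recovered reads, which weighs each value by its reads, also called 0 members. It left 5 of the 177 members at an unadjusted p under 0.05, beside 3236 of 13885 genes. In limma without these weights, the smallest adjusted p of a member was 0.0686, for SNORD30.

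Over all 195 members, both si-circZFR libraries stood above both NC libraries in 40 (20.5%) and below them in 29 (14.9%). The shares over all 19771 genes above 0 in at least 3 libraries were 25.4% and 26.5%. The log2 fold change was above 0 in 117 members (60.0%), beside 49.9% of those 19771 genes. By class it was above 0 in 71 of 118 C/D, 38 of 62 H/ACA and 8 of 15 scaRNA members, with medians of 0.26, 0.16 and 0.06 on the log2 scale. Over members above 0 in all 4 libraries these medians were 0.14, 0.14 and -0.14.

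The shift towards higher values rested on NC 2. With NC 2 left out, 81 of 195 members (41.5%) lay above 0, beside 48.9% of all genes, and the medians became -0.13 for C/D, -0.15 for H/ACA and 0.07 for scaRNAs. With NC 1 left out, the share was 69.7% and the medians 0.42, 0.42 and 0.22. The calls depended on single libraries too. Without NC 1, limma called 32 of 164 members (26 higher and 6 lower) beside 1574 of 13522 genes (11.6%), with NC 2 alone taken to vary as much as the si-circZFR libraries did. Without NC 2 it called 0 members and 0 genes (0.0%; 56 members at an unadjusted p under 0.05), without si-circZFR 1 it called 4 members beside 0.619% of all genes, and without si-circZFR 2 it called 1 member beside 0.112%.

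The summed level of each class shows how the libraries differed. It is given in scaled RPM, the reads divided by library size and by the same factor as the RPKM but not by gene length. The 112 C/D members other than U3 and the SNORD116 entry summed to 85.2 in NC 1, 55.8 in NC 2, 68.0 in si-circZFR 1 and 80.7 in si-circZFR 2. NC 1 and NC 2 were the highest and the lowest of the 4, so the groups overlapped, and the ratio of means was 1.05. In bulk RNA, fewer cells carrying an RNA and less of it per cell cannot be told apart. The H/ACA members summed to 42.5, 26.4, 35.0 and 39.6 in the same order, again with NC 2 lowest and NC 1 highest (ratio 1.08). The scaRNAs summed to 7.28, 5.11, 8.39 and 8.63, and here both si-circZFR libraries stood above both NC libraries, with a ratio of 1.37. Their exact Poisson 95% intervals, which cover counting error only, ran from 5.82 to 8.99 in NC 1 and from 6.80 to 10.2 in si-circZFR 1, so these neighbours could not be separated at this depth. An exact two-sided permutation test of 2 against 2 libraries cannot go below p = 0.33.

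**Figure D2:**
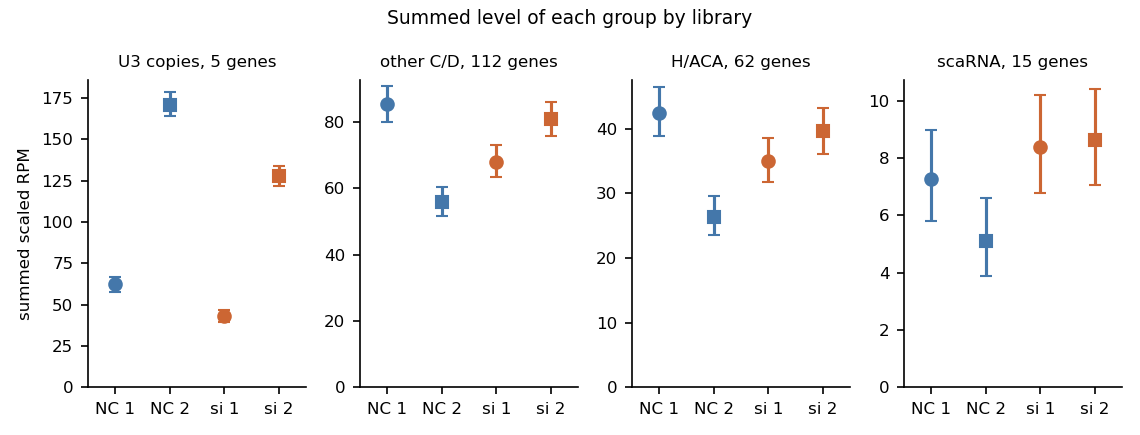
Summed scaled RPM of 4 groups of members by library (NC in blue, si-circZFR, written si, in orange; circles for replicate 1, squares for replicate 2), with exact Poisson 95% intervals as bars. U3 is high in both replicate 2 libraries, NC 2 is lowest in the other 3 groups, and only the scaRNA panel has both si-circZFR libraries above both NC libraries.

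U3, which binds the ribosomal RNA precursor and is needed for release of the small subunit RNA, differed more between the replicate numbers than between the groups. The 5 U3 copies summed to 62.3 scaled RPM in NC 1, 171 in NC 2, 43.1 in si-circZFR 1 and 128 in si-circZFR 2. NC 2 was 2.75 times NC 1, and si-circZFR 2 was 2.97 times si-circZFR 1, while the groups overlapped and si-circZFR averaged 0.732 of NC. Within a number, si-circZFR 1 was 0.692 of NC 1 and si-circZFR 2 was 0.747 of NC 2, although nothing in the labels says that the numbers pair the libraries. U3 made up 36.7% of all C/D member reads in NC 1 but 70.2% in NC 2, and 31.7% in si-circZFR 1 but 53.7% in si-circZFR 2. The sum of all C/D reads therefore took its order from U3: it was 170, 244, 136 and 238 scaled RPM.

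SNORD3A alone held 686, 1718, 461 and 1377 reads (log2 fold change -0.49 ± 0.64 SE, adjusted p = 0.684). SNORD3B-2 held 13, 137, 3 and 133 reads and its twin SNORD3B-1 held 16, 35, 2 and 26. Both had more reads in the replicate 2 libraries. SNORD3C held 11, 21, 3 and 11 reads, and its groups were apart only because the 11 reads of NC 1 scaled to 4.29 RPKM and the 11 of si-circZFR 2 to 4.13. SNORD3D, the most divergent copy, held 10, 35, 30 and 25 reads and did not follow the same order. Since SNORD3B-1 and SNORD3B-2 are identical over their whole length, the difference in their reads cannot be read as a difference between the genes.

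**Figure D3:**
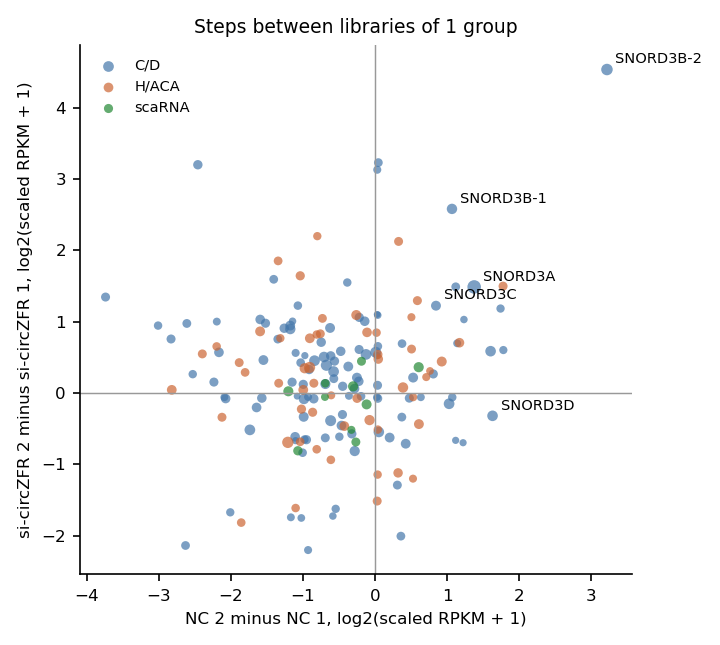
Each point is 1 of the 177 members tested. The horizontal axis is NC 2 minus NC 1 and the vertical axis si-circZFR 2 minus si-circZFR 1, both in log2(scaled RPKM + 1), and larger points have more reads. SNORD3A, SNORD3B-1, SNORD3B-2 and SNORD3C lie in the upper right, higher in replicate 2 of both groups, while most other members lie left of 0.

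U8, U14, U17 and U22, also needed for cleavage of the ribosomal RNA precursor, had few reads, as did U13. U8 (SNORD118), which acts in large subunit maturation and is annotated inside an exon of TMEM107, held 2, 6, 1 and 6 reads, with more reads in both replicate 2 libraries. U13 (SNORD13) held 1, 0, 1 and 1 and was not tested. The 4 detected U14 copies held 3, 4, 7 and 1 reads (SNORD14A), 9, 12, 13 and 8 (SNORD14B), 7, 3, 8 and 5 (SNORD14C) and 9, 6, 12 and 9 (SNORD14D). Their groups overlapped in every case, and their adjusted p ran from 0.368 to 0.922. U22 (SNORD22) held 23, 9, 14 and 29 reads and U17 (SNORA73A) held 12, 8, 10 and 7, both with overlapping groups (adjusted p = 0.637 and 0.641). No change in these RNAs was detectable at this depth.

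The entry named SNORD116 was not a single snoRNA. Its RPKM values gave whole reads at a length of 55128 bases, and RefSeq places the 29 listed copies of SNORD116, an imprinted C/D cluster on chromosome 15, over 55129 bases (chr15:25051476-25106604, GRCh38). The entry held 264, 191, 288 and 362 reads and both si-circZFR libraries stood above both NC libraries (22.4 and 16.8 against 24.9 and 29.5 scaled RPM, ratio 1.39). It stood under 1 RPKM everywhere because of its length, and it was not tested. The 29 single copies together held 5, 3, 3 and 3 reads, and SNORD116-4 alone among them met the detection rule. The reads of the entry thus lay almost wholly outside the single snoRNA entries.

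Among the 87 members with at least 20 reads, 30 had groups that did not overlap, 18 higher (20.7%) and 12 lower (13.8%) in si-circZFR, beside 25.4% and 26.5% of all genes above 0 in at least 3 libraries. The 6 lowest and the 6 highest log2 fold changes of those 30 are described next, chosen by these values and given as a description, and none passed the adjusted test.

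SNORD32A had the lowest. This C/D snoRNA measured 28.9 and 23.6 scaled RPKM in NC and 9.49 and 4.96 in si-circZFR, from 28, 22, 9 and 5 reads. The log2 fold change was -1.78 ± 0.29 SE with an adjusted p of 0.0825 (0.0199 to 0.246 over 12 alternative settings, 1 of them under 0.05). SNORD34, from another intron of the same host RPL13A, measured 6.42 and 12.0 against 3.93 and 4.93 (5, 9, 3 and 4 reads; log2 fold change -0.86). The remaining snoRNAs of that host overlapped between the groups: SNORD33 held 4, 5, 6 and 2 reads and SNORD35A held 5, 4, 4 and 10. The snoRNAs of RPL13A are known as a set that acts in the response to lipid overload. Here 2 of the 4 were lower in both si-circZFR libraries and 2 overlapped.

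SNORD16 in RPL4 measured 11.0 and 6.16 scaled RPKM in NC and 2.59 and 4.88 in si-circZFR (13, 7, 3 and 6 reads). SNORA6, a pseudouridylation guide in RPSA, measured 12.5 and 11.8 against 8.12 and 6.01, from 22, 20, 14 and 11 reads. Its NC libraries lay close together (SD 0.486 on a mean of 12.2), and the log2 fold change was -0.72 ± 0.19 SE with an adjusted p of 0.128. SNORD80 in GAS5 measured 27.4 and 57.0 against 25.6 and 22.9, so that NC 1 lay close to si-circZFR 1 and the difference came mostly from NC 2. SNORD3C was given above with the U3 copies.

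At the other end, SNORD42A in RPL23A measured 8.19 and 27.0 scaled RPKM in NC and 39.0 and 59.1 in si-circZFR, from 6, 19, 28 and 45 reads. Its log2 fold change of 1.61 ± 0.52 SE was the highest of these 12, with an adjusted p of 0.172, and its NC libraries lay far from each other. Its neighbour in the same host, SNORD4A, held 53, 33, 36 and 29 reads and overlapped. SNORD110 in NOP56 measured 21.5 and 14.1 against 40.3 and 49.9, from 19, 12, 35 and 46 reads (log2 fold change 1.32 ± 0.24 SE, adjusted p = 0.0829). The Poisson 95% interval of its 35 reads in si-circZFR 1, 24.4 to 48.7, overlapped that of its 19 reads in NC 1, 11.4 to 29.7. SNORD57, also in NOP56, measured 5.88 and 4.89 against 12.0 and 13.6, from 5, 4, 10 and 12 reads.

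SNORD124 in MED24 measured 4.07 and 1.69 scaled RPKM against 6.65 and 8.61, on 5, 2, 8 and 11 reads. SNORA5A in TBRG4 measured 2.53 and 1.97 against 5.81 and 5.47, on 4, 3, 9 and 9 reads (log2 fold change 1.04 ± 0.18 SE, adjusted p = 0.0825). SCARNA22, also called ACA11 and known for its overexpression in myeloma with rearranged NSD2, measured 4.74 and 7.75 against 12.4 and 16.3, on 7, 11, 18 and 25 reads (log2 fold change 1.11, adjusted p = 0.111). These 3 were chosen among members with groups apart, so that separation was fixed by the choice. The Poisson intervals of the reads in the lower si-circZFR library and the higher NC library overlapped in each. For SNORD124 they were 3.45 to 15.8 (si-circZFR 1) and 1.62 to 11.7 (NC 1). For SNORA5A they were 4.12 to 17.1 (si-circZFR 2) and 1.09 to 10.2 (NC 1). For SCARNA22 they were 10.7 to 28.4 (si-circZFR 1) and 5.49 to 19.7 (NC 2).

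**Figure D4:**
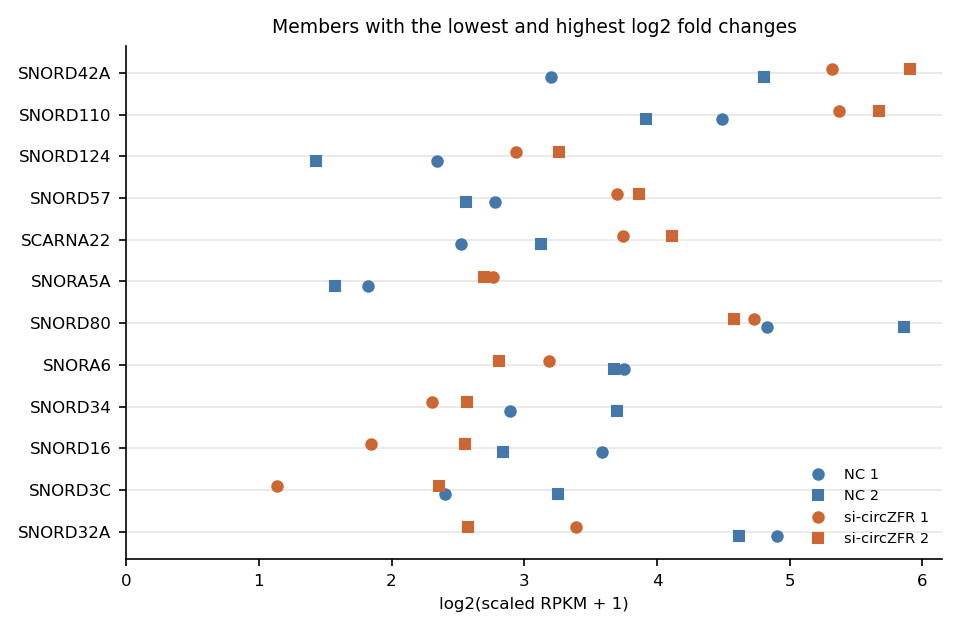
Level in log2(scaled RPKM + 1) of the 12 members with the lowest and highest log2 fold changes among those with at least 20 reads and groups apart. Blue marks NC and orange si-circZFR, with circles for replicate 1 and squares for replicate 2. SNORD42A and SNORD110 have the highest mean differences on this scale and SNORD32A the lowest, and SNORD3C and SNORD80 have neighbouring values from opposite groups.

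Some of the smallest p-values belonged to members with few reads, and 3 of these are named here after their values were seen. SNORD30 held 2, 2, 6 and 6 reads (log2 fold change 1.24 ± 0.16 SE). The libraries of each group agreed to the read, yet the Poisson interval of 2 reads, 0.242 to 7.22, holds 6. SCARNA21 held 1, 0, 5 and 6 reads (log2 fold change 1.77, adjusted p = 0.0824) and SNORD1B, in SNHG16, held 9, 5, 2 and 1 (log2 fold change -1.68, adjusted p = 0.0867). limma on log2 RPKM does not weigh such counts by their error.

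The remaining members named for their many reads either overlapped or had groups apart without passing the adjusted test. The most abundant H/ACA members were SNORA70 in RPL10 with 79, 32, 77 and 50 reads, and SNORA67 in EIF4A1 with 56, 28, 43 and 59, both overlapping. SNORA81 in EIF4A2 held 13, 17, 24 and 27 reads and was higher in both si-circZFR libraries (6.18 and 8.41 against 11.7 and 12.3 scaled RPKM, adjusted p = 0.145). SNORD17 in SNX5 held 73, 43, 31 and 44 reads. Its scaled RPKM of 26.1 and 16.0 against 11.3 and 15.1 left NC 2 and si-circZFR 2 side by side.

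Of the 15 scaRNAs, 5 were higher in both si-circZFR libraries (33.3%), 4 were lower (26.7%) and 6 overlapped, beside 25.4% higher and 26.5% lower over all genes above 0 in at least 3 libraries. The higher group held SCARNA12, with 11, 8, 21 and 24 reads (3.45 and 2.61 against 6.72 and 7.24 scaled RPKM, log2 fold change 0.99 ± 0.18 SE, adjusted p = 0.0829), SCARNA22 and SCARNA21 given above, and SCARNA13 and SCARNA14 with 18 and 7 reads in all. The summed scaRNA level thus leaned on its most abundant member: without SCARNA12 the log2 ratio of the sums went from 0.46 to 0.30. SCARNA9, a guide for spliceosomal U2 RNA, held 15, 13, 11 and 10 reads and was lower in both (log2 fold change -0.34, adjusted p = 0.314). SCARNA16, a guide for U1 RNA, held 22, 8, 12 and 13 and overlapped.

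Hosts and their snoRNAs were compared next, since an intronic snoRNA and its host share a transcript. Of the 194 members with a position, 186 lay inside a gene on the same strand and 169 in an intron of its main transcript. A further 5 lay in an exon and 2 across an exon edge, where reads of the host and the member cannot be told apart. In total RNA, reads of an unspliced host over an intronic member were not separated from those of the member either. For 161 members in 88 hosts both were tested. The hosts had a median log2 fold change of -0.38, with 66 of 88 below 0 and 0 at an adjusted p under 0.05 in limma. At an unadjusted p under 0.05 there were 29 hosts (33.0%), beside 21.4% of all genes tested, and limma-voom called 7 hosts (7.95%), beside 2.47% of all genes. The member stood above its host in 125 of 161 pairs (77.6%), by a median of 0.61 on the log2 scale. The Pearson correlation of the log2 fold changes over the 161 pairs was 0.18, a description only, since members of a host share it and all values share 4 libraries.

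**Figure D5:**
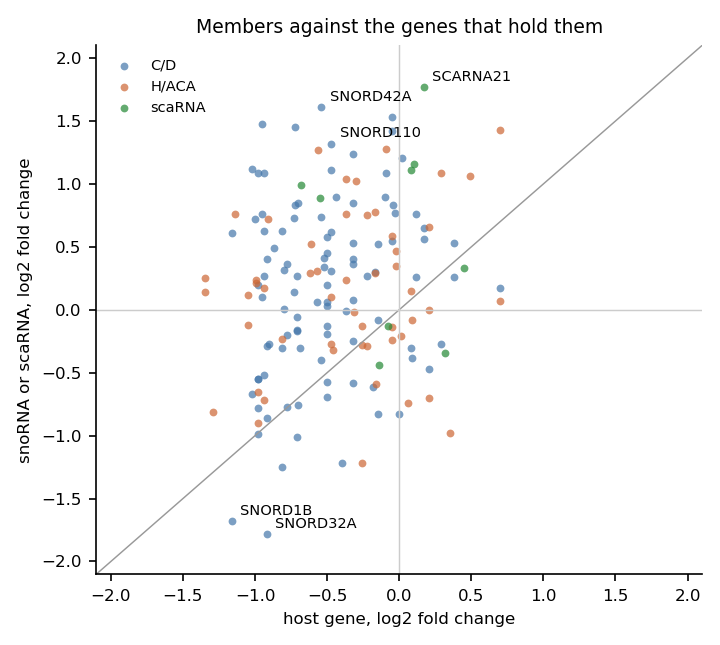
Log2 fold change of each member (vertical axis) against that of the gene that holds it (horizontal axis), for 161 members in 88 hosts, coloured by class, with the line of equal change. Most points lie left of 0 and above the line, SNORD32A and SNORD1B lie low with their hosts, and SNORD42A and SNORD110 lie high above hosts that are below 0.

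Single hosts held snoRNAs of different behaviour. NOP56, itself a core protein of the C/D particle, measured 114 and 119 scaled RPKM in NC and 82.0 and 86.8 in si-circZFR (log2 fold change -0.47, adjusted p = 0.216), while its 5 members summed to 5.76 and 4.40 against 7.52 and 9.52 scaled RPM. Host and snoRNAs thus stood apart in opposite directions, neither past the adjusted test where one was run. RPL13A measured 471 and 918 against 324 and 370 (log2 fold change -0.92, adjusted p = 0.236), and its 4 members summed to 3.56 and 3.52 against 1.90 and 1.71, both lower. RPL7A measured 796 and 965 against 461 and 430, but its 4 members overlapped at 3.05, 1.76, 2.07 and 3.26.

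GAS5, a non-coding host with 9 members, measured 53.9 and 78.8 scaled RPKM in NC and 45.1 and 46.8 in si-circZFR, and its members summed to 9.74 and 8.98 against 8.04 and 8.63 scaled RPM, both lower. Of its 9 members, 2 were higher in both si-circZFR libraries, 1 was lower and 6 overlapped. For SNORD77, SNORD78 and SNORD81, among them, the length behind the reads was uncertain by a whole multiple, so their shares of the sum are too. SNHG1, with 8 members, measured 41.3 and 24.3 against 26.2 and 24.2. Its members spread from SNORD30 and SNORD31, higher in both si-circZFR libraries, to SNORD27, lower in both with 15, 12, 8 and 10 reads. TBRG4 measured 61.2 and 67.4 against 49.4 and 49.7, whereas its 3 members, SNORA5A, SNORA5B and SNORA5C, summed to 1.35 and 0.968 against 1.82 and 2.12.

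The proteins that build and process these RNAs were examined as lists, to be read beside the 21.4% of all genes tested with an unadjusted p under 0.05 and the 2.47% called by limma-voom. Of the 4 C/D core proteins, 0 passed the adjusted test in limma or limma-voom (3 at an unadjusted p under 0.05) and all lay below 0: the methyltransferase fibrillarin (FBL) measured 410 and 451 scaled RPKM in NC and 299 and 278 in si-circZFR (log2 fold change -0.57 ± 0.23 SE, adjusted p = 0.231), and SNU13, listed as NHP2L1, measured 22.5 and 32.7 against 16.8 and 15.8. For all 4, both si-circZFR libraries stood below both NC libraries, beside 26.5% of all genes above 0 in at least 3 libraries. Of the 4 H/ACA core proteins 0 passed in either (1 at an unadjusted p under 0.05). NOP10 measured 71.4 and 109 against 54.9 and 52.8 (adjusted p = 0.188), and the pseudouridine synthase dyskerin (DKC1) overlapped at 25.1, 24.5, 24.2 and 29.0.

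Of 10 assembly factors 0 passed in limma or limma-voom (2 at an unadjusted p under 0.05), with 2 above 0 and 8 below (median -0.31). Of 7 genes for processing of intronic snoRNAs, such as the debranching enzyme DBR1, 0 passed in either, also at an unadjusted p under 0.05 in limma (median -0.08). Of 7 genes for Cajal bodies and trafficking 0 passed in limma (2 at an unadjusted p under 0.05, median -0.19) and limma-voom called 1, NOLC1. NOLC1, a chaperone of both kinds of particle and a nucleolar phosphoprotein, measured 17.7 and 13.7 scaled RPKM against 40.3 and 39.9 (log2 fold change 1.31 ± 0.18 SE, adjusted p = 0.0802), and TCOF1, its relative in the nucleolus, measured 26.0 and 20.8 against 38.6 and 35.9 (adjusted p = 0.137). Across all 13885 genes the median log2 fold change was -0.008.

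Other short genes and other small RNA genes served as a comparison. The 324 other genes tested that were shorter than 300 bases had a median log2 fold change of 0.01, and 32.1% had an unadjusted p under 0.05. Of 194 other small RNA genes picked by name, 19 were tested and 0 passed in limma (5 at an unadjusted p under 0.05), while limma-voom called 1, RMRP. RMRP, the RNA of the RNase MRP particle that also cuts the ribosomal RNA precursor, held 86, 81, 21 and 7 reads (log2 fold change -2.50 ± 0.41 SE, adjusted p = 0.0825), a larger difference than that of any member. RN7SK, a regulator of transcription elongation, held 18, 20, 4 and 4 reads (adjusted p = 0.0680). RN7SL1, the RNA of the signal recognition particle, held 53, 106, 57 and 97 reads and so stood higher in the replicate 2 libraries, as U3 did, while RN7SL2 held 26, 27, 14 and 14. How far the preparation of the libraries set these orders was not tested.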

How the data were processed

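Total RNA from 2 NC and 2 si-circZFR libraries was sequenced on the Ion Proton. The authors deposited 1 table of RPKM values per library; the aligner, counter and annotation are not given in the sources used here. The labels name GRCh37 as the build and the study's methods name hg38, so positions come from RefSeq (GRCh38.p14), with hosts from GENCODE. The members and lists were chosen with earlier results of these data known.

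Whole reads were recovered from the RPKM steps and gene lengths for 24282 of 24289 genes above 0 (96.6% to 97.2% of small RNA genes per library gave whole reads at their RefSeq length). Values were divided by trimmed-mean factors (30% of ratios and 5% of levels trimmed; factors 0.886 to 1.11). Genes with 1 RPKM in at least 2 libraries were tested with limma (version 3.58.1, R 4.3.3) on log2(scaled RPKM + 1), with a trended prior variance and Benjamini-Hochberg adjustment over all 13885 genes. Fold changes on this scale understate those of low genes. The code was tested on simulated data.

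Named members were, in each class, the 4 with most reads; the 6 lowest and 6 highest log2 fold changes among members with 20 reads and groups apart; any at an adjusted p under 0.05; and U3, U8, U13, U14, U17 and U22. Alternatives were other scaling, pseudocounts of 0.5 and 4, filters, a replicate block, no variance trend, limma-voom and leaving out each library. The columns hold no comparisons of the authors. One of the cell line markers is not reported here.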

Additional observations from a re-analysis of the deposited data

How the results depend on the processing

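The count of members at an adjusted p under 0.05 stayed at 0 under library size scaling, pseudocounts of 0.5 and 4, no filter, a filter of 10 reads, no variance trend and limma-voom, and ranged from 0 to 32 when 1 library was left out. Over all genes the count of 8 became 2 with a pseudocount of 0.5, 0 without a filter (3639 at an unadjusted p under 0.05), 1 with 10 reads, 0 without a variance trend (2969) and 343 with limma-voom, and ranged from 0 to 1574 when 1 library was left out. With the replicate block limma called 17 genes and 0 members. At an unadjusted p under 0.05 that fit left 59 of 177 members and 3071 of 13885 genes. The replicate numbers were not shown to pair the libraries: the steps from replicate 1 to 2 in NC and in si-circZFR correlated at 0.0696 over 13885 genes, at 0.132 over 177 members and at 0.00986 without U3.

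The scaRNA median of 0.06 became 0.61 over members with 10 or more reads, also when that filter was set on all genes, 0.78 with limma-voom over the members it tested and -0.14 over members above 0 in all 4 libraries, all of which keep fewer members, and ranged from 0.07 to 0.33 without 1 library. Without 1 library, the log2 ratio of summed levels ranged from -0.60 to 0.21 for C/D, from -0.19 to 0.50 for H/ACA and from 0.22 to 0.74 for scaRNAs. Leaving out the U3 copies and the SNORD116 entry, an alternative chosen after seeing the data, moved the C/D sum from -0.15 to 0.08. With library size scaling, SCARNA16 went from -0.13 to 0.03 and SNORD14B from -0.06 to 0.11. Of 32 named members, 13 changed sign under some alternative. Without 1 library their log2 fold changes ranged as follows: SNORD3A from -1.22 to 0.26, SNORD3B-2 from -3.06 to 1.46, SNORA70 from -0.35 to 0.86, SNORA67 from -0.16 to 0.75, SCARNA16 from -0.73 to 0.47, SNORD3B-1 from -2.52 to 0.04, SNORD3D from -0.39 to 1.25, SNORD118 from -1.0 to 0.47, SNORD14A from -1.17 to 0.83, SNORD14B from -0.41 to 0.30, SNORD14C from -0.13 to 0.82, SNORD22 from -0.19 to 0.99 and SNORA73A from -0.44 to 0.02. The causes were not tested. Few reads limit every single-gene value given here.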
